A study of Rattus norvegicus with 64 samples.

Results

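Protocadherins are single-pass membrane proteins of the cadherin family, and the genes described here are all those whose symbol in the gene counts begins with Pcdh, 49 of 17260 genes. Of these, 39 belonged to the clustered protocadherins, with 15 genes in the alpha, 11 in the beta and 13 in the gamma cluster, all on chromosome 18. The other 10 were non-clustered, among them the delta1 genes Pcdh7, Pcdh9 and Pcdh11x, the delta2 genes Pcdh8, Pcdh17, Pcdh18 and Pcdh19, and Pcdh12, Pcdh15 and Pcdh20. Pcdh1, Pcdh10, Pcdhgc4 and Pcdhgc5 were not analysed here. The rule used gene names and no measured value, though earlier results of these data were known when it was set.

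In the alpha and gamma clusters, a variable exon that encodes the extracellular part is spliced to constant exons shared by the whole cluster, and each variable exon has its own promoter. Neurons pick alpha, beta and gamma promoters in varied combinations, with CTCF and cohesin bringing promoters to an enhancer, while the C-type genes (such as Pcdhac2 and Pcdhgc3) are used more evenly among neurons. The proteins bind copies of themselves on other cells and are known for dendrite self-avoidance, axon tiling and neuronal survival. The non-clustered delta protocadherins are weaker adhesion molecules with roles in axon growth, cell sorting and synapse remodelling.

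RNA was measured in 64 samples of entorhinal cortex from untreated Long Evans rats, an outbred strain, by strand-specific sequencing after removal of ribosomal RNA. Each sample was layer II (LII) or the layers deep to it (LDeep, layers III to VI) of the medial (MEC) or lateral (LEC) entorhinal cortex, cut by hand at postnatal day 2, 9, 23 or 45 (P2, P9, P23, P45). Every combination of region, layer and age had 5 (P2), 4 (P9), 3 (P23) or 4 (P45) samples, and the labels do not say that samples came from separate animals, so that p-values measure the spread between these samples only. The dissected tissue held all cell types of the layer, and fewer cells of a type cannot be told apart from less RNA per cell.

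Between 3894334 and 11439143 pairs per library fell on genes (median 7569157.5). The 3 markers of LII were all higher in LII and the 5 markers of deep layers all lower. The 3 libraries least like their own group, by their median correlation with it, were MEC LII P2 replicate 1 (0.899), LEC LDeep P45 replicate 4 (0.929) and MEC LDeep P2 replicate 4 (0.93), and results that changed without them are given with that change. Levels are in CPM, the count scaled to a common library size, and differences are log2 fold changes ± SE. A gene was called at an adjusted p below 0.05, from edgeR's quasi-likelihood test with Benjamini-Hochberg adjustment over all genes tested.

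The pairs on constant exons were counted for every gene of a cluster. The constant exons of the alpha cluster span 2856 bases (rn6 chr18:30185396-30185454, chr18:30188352-30188440 and chr18:30213189-30215896), and those of the gamma cluster 2069 bases (chr18:30964401-30964490 and chr18:30969135-30971113). The lowest gene of a cluster was Pcdha1 or Pcdhga1 in all 64 libraries, with 286 to 2974 pairs for Pcdha1 and 1441 to 4881 for Pcdhga1. The count of another gene above this lowest gene is a lower bound of the pairs on its own variable exon. A log2 fold change of such counts is neither the fold change of the variable exon nor a bound of it, because the subtracted part that belongs to Pcdha1 or Pcdhga1 is unknown and may itself change. It made up 26.5% of the summed count of Pcdhac2 and 24.0% of that of Pcdhgc3, and for the other genes it ranged from 1.09% (Pcdhga5) to 10.2% (Pcdha4). Both quantities are given below, as deposited counts and as counts above the lowest gene, and in the second Pcdha1 and Pcdhga1 are 0 by construction.

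Per kilobase of exon, and with counts above the lowest gene for alpha and gamma genes, the levels averaged over the 4 ages ran from 66.2 CPM per kilobase for Pcdh9 to 0.959 for Pcdhb2. Pcdh7 stood at 47.3, Pcdhgc3 at 43.2, Pcdh8 at 31.6 and Pcdhac2 at 26.2 CPM per kilobase. Delta protocadherins and C-type genes held the 7 highest levels, and beta genes many of the lowest. Pcdhb5 was the highest beta gene at 7.70 CPM per kilobase, and Pcdha4 the highest alpha gene outside the C-type genes at 8.44. The C-type gene Pcdhac1 was low at 1.56 CPM per kilobase. As deposited, alpha and gamma genes have no level of their own to compare, since the constant exons dominate their counts.

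For the comparison of ages, the 4 libraries that share an age and a replicate number were added. This gave 16 sums, 9 younger (P2 and P9) and 7 older (P23 and P45). Raw counts were added, so deeper libraries weigh more, and the mix of layers and regions differs between sums. In P45 replicate 4, the highest older sum of Pcdh8 and Pcdh19, LEC LII had 11439143 pairs and LEC LDeep 4922946. The part of this mix in the age ranges was not tested. Of the 49 protocadherins, 44 were called, 39 lower and 5 higher in the older sums, where 77.3% of the 13092 genes tested were called. The median log2 fold change was -0.35 over the 49 genes and -0.0075 over all genes. The alpha and gamma genes share most of their pairs and are no separate observations. Of the 21 genes that share no exon, 16 were called, 11 lower and 5 higher, a share close to the background.

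**Figure D1:**
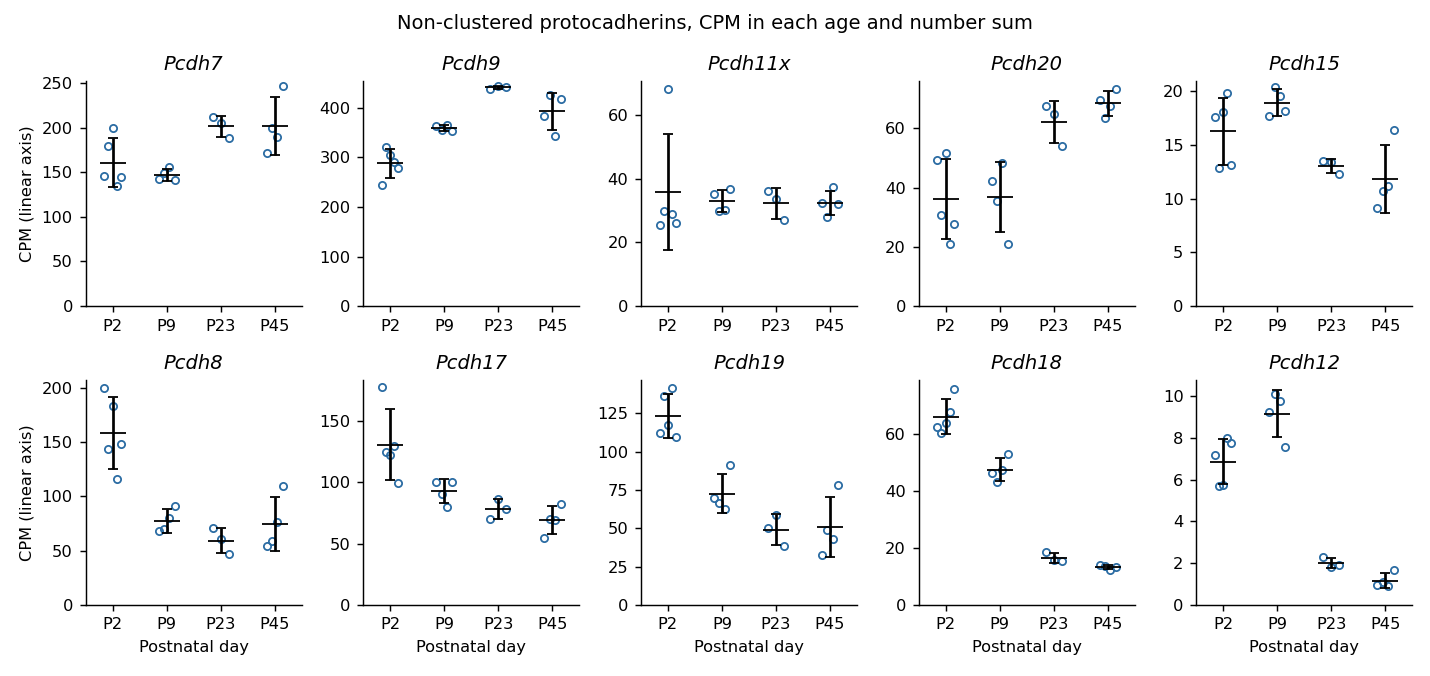
CPM (linear axis from 0) of the 10 non-clustered protocadherins at P2, P9, P23 and P45. Each circle is the sum of the 4 libraries that share an age and a replicate number, and the bars are the mean ± SD. The older circles of Pcdh12 and Pcdh18 all lie below the younger ones, and those of Pcdh20 all above.

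Pcdh12, a protocadherin of endothelial cells, had 5.68, 7.75 and 10.1 CPM (lowest, median and highest) in the younger sums and 0.898, 1.68 and 2.28 CPM in the older ones. The groups did not overlap, and the older sums were 5.23-fold lower (-2.39 ± 0.14, adjusted p = 1.7e-10). The gene first rose from P2 to P9 by 0.42 ± 0.16 on the log2 scale and then fell by 2.20 ± 0.21 from P9 to P23. Of 7 other endothelial markers (Pecam1 and Cldn5 among them), 4 were higher and 1 was lower in the older sums, with a summed level of 179 to 307 CPM in the younger and 260 to 342 CPM in the older sums.

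Pcdh18, a delta2 protocadherin, had 43.2, 60.3 and 76.1 CPM in the younger sums and 12.4, 13.9 and 18.4 CPM in the older ones, again without overlap. The older sums were 3.79-fold lower (-1.92 ± 0.07, adjusted p = 3.6e-13), with falls both from P2 to P9 (-0.48 ± 0.08) and from P9 to P23 (-1.53 ± 0.10). The 5 markers of dividing cells also fell with age, with a median of -3.61, and their part in the fall of Pcdh18 was not tested.

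The other delta2 genes fell less, and their groups overlapped. Pcdh19, an X-linked gene mutated in an early-onset epilepsy, had 62.9, 110 and 142 CPM in the younger and 32.2, 49.0 and 78.3 CPM in the older sums (-0.93 ± 0.15, adjusted p = 3.6e-05). Pcdh8, known as arcadlin and induced by neuronal activity, had 68.0, 116 and 200 CPM in the younger and 46.6, 60.8 and 110 CPM in the older sums (-0.73 ± 0.15, adjusted p = 0.00031). Its called step was from P2 to P9, at -1.04 ± 0.20, when the mean went from 158 ± 33.5 CPM (SD, n = 5) to 77.2 ± 10.7 CPM (SD, n = 4). Pcdh17, which takes part in axon extension and presynaptic assembly, had 79.8, 100 and 178 CPM in the younger and 54.7, 69.9 and 86.4 CPM in the older sums (-0.58 ± 0.11, adjusted p = 0.00012).

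Pcdh20, the non-clustered gene that rose most, had 21.1, 35.5 and 51.7 CPM in the younger and 53.9, 67.4 and 73.3 CPM in the older sums. Every older sum was above every younger one, by 1.78-fold on average (0.84 ± 0.18, adjusted p = 0.00050). The delta1 genes Pcdh7, an adhesion molecule of axons, and Pcdh9 rose by 0.39 ± 0.09 and 0.37 ± 0.06, with overlapping groups. For Pcdh9, the most abundant member per kilobase, the median went from 320 to 427 CPM, in the steps 0.32 ± 0.07 (P2 to P9) and 0.30 ± 0.08 (P9 to P23). Marker lists of several cell types rose over the same ages, among them all 5 neuronal markers (median 1.64) and all 7 oligodendrocyte markers (median 6.77), and their part in these rises was not tested.

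Pcdh15, best known for the tip links of sensory hair cells, had 12.88, 17.9996 and 20.3 CPM in the younger and 9.14, 12.2 and 16.3 CPM in the older sums (-0.50 ± 0.12, adjusted p = 0.0010). Of the 6 markers of oligodendrocyte precursors, 2 rose and 1 fell between the same ages. The X-linked delta1 gene Pcdh11x was not called (-0.09 ± 0.18, adjusted p = 0.66). In LEC libraries alone the falls of Pcdh15 and Pcdh17 and the rise of Pcdh7 were not called (adjusted p = 0.052, 0.094 and 0.089).

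Single age steps placed most calls before P23. From P2 to P9, 24 of the 49 genes were called, 3 of them higher (54.0% of all genes called). From P9 to P23, 26 were called, 5 of them higher (55.8% of all genes). From P23 to P45, edgeR called 0 of the 49 genes against 0.458% of all genes, with 2 of the 49 at an unadjusted p below 0.05 and 1 call, Pcdh12, by DESeq2. Pcdh12 was also called in that step without P45 replicate 4 (-1.03 ± 0.20, adjusted p = 0.030), and without the 3 libraries least like their groups (adjusted p = 0.038). By cluster, in deposited counts, all 13 gamma genes were lower at P9 than at P2 and 0 of the 15 alpha genes were called. From P9 to P23 all 15 alpha genes were lower and 0 gamma genes were called. Genes of a cluster share most of these pairs and are no separate observations. In counts above the lowest gene this split did not hold for every gene. There Pcdhga10 had 22.7 to 26.2 CPM at P9 and 11.3 to 15.9 CPM at P23. Pcdha11 had 8.52 to 11.9 CPM at P2 and 4.37 to 6.92 CPM at P9.

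**Figure D2:**
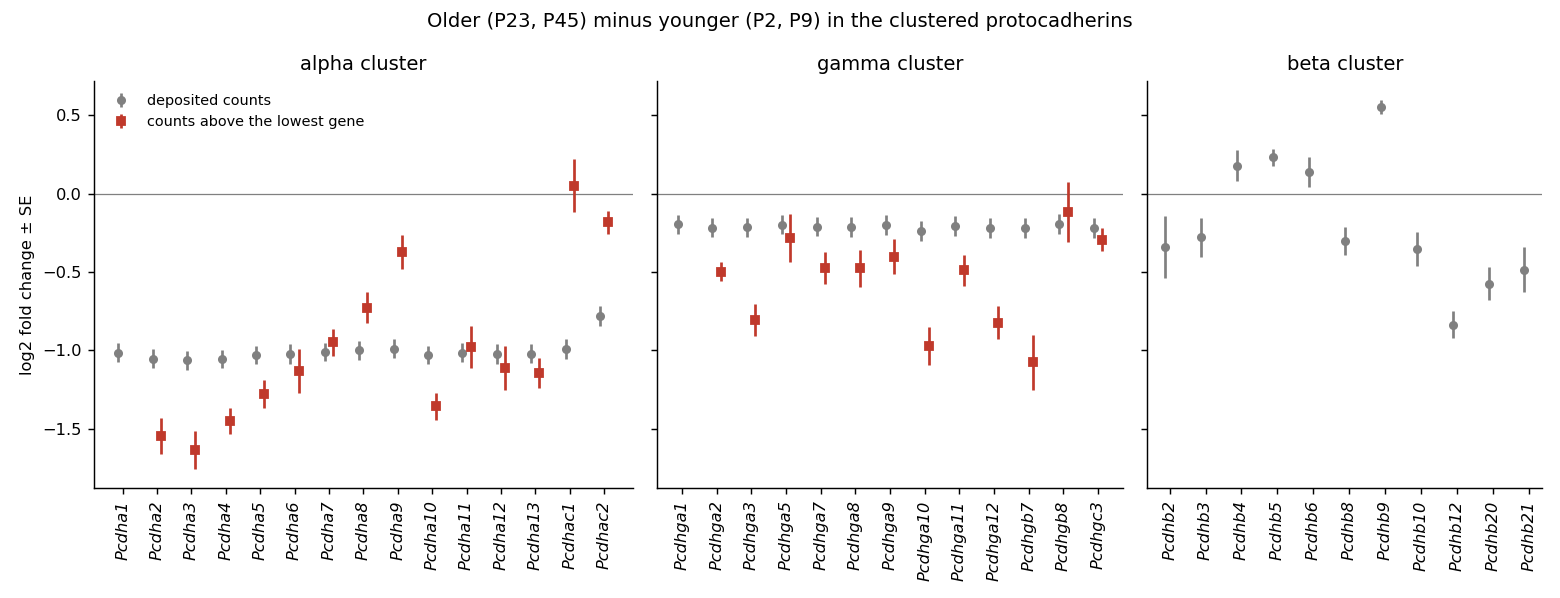
Log2 fold change ± SE between the older (P23, P45) and the younger (P2, P9) sums for each alpha, gamma and beta gene. Grey circles are deposited counts and red squares counts above the lowest gene of the cluster. The grey alpha values lie between -0.78 and -1.06 and the grey gamma values between -0.19 and -0.24, while the red values spread from -1.64 (Pcdha3) to 0.05 (Pcdhac1).

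In the alpha cluster the deposited counts fell together, by 0.78 to 1.06 on the log2 scale. The count of the lowest gene, Pcdha1, holds the pairs on constant exons and an unknown part of its own. It was 188, 246 and 270 CPM in the younger and 109, 118 and 133 CPM in the older sums. These did not overlap (-1.01 ± 0.06, adjusted p = 1.8e-10).

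Counts above the lowest gene set the alpha genes apart from each other. Here 13 of the 14 alpha genes other than Pcdha1 were called, all lower in the older sums, where again 77.3% of all genes were called. Pcdha3 had 20.7, 27.1 and 28.4 CPM above the lowest gene in the younger and 4.89, 8.10 and 9.96 CPM in the older sums, without overlap (-1.64 ± 0.12, adjusted p = 3.0e-09). Pcdha4 went from 23.8, 29.9 and 36.0 CPM to 8.70, 10.2 and 12.9 CPM (-1.45 ± 0.08, adjusted p = 1.1e-10), also without overlap.

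The C-type genes of the alpha cluster had smaller values. Pcdhac2, required for the tiling of serotonergic axons, had 56.2, 72.1 and 81.3 CPM above the lowest gene in the younger and 57.3, 60.0 and 74.1 CPM in the older sums. The groups overlapped, and the fall was small (-0.18 ± 0.07, adjusted p = 0.034). Pcdhac1 had 2.62, 3.39 and 5.56 CPM above the lowest gene in the younger and 3.10, 3.72 and 5.73 CPM in the older sums, with no call (0.05 ± 0.17, adjusted p = 0.79). Its deposited count, of which 1.98% lay above the lowest gene, fell by 0.99 ± 0.06 over the same ages. The value above the lowest gene cannot be told from 0 in either direction.

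**Figure D3:**
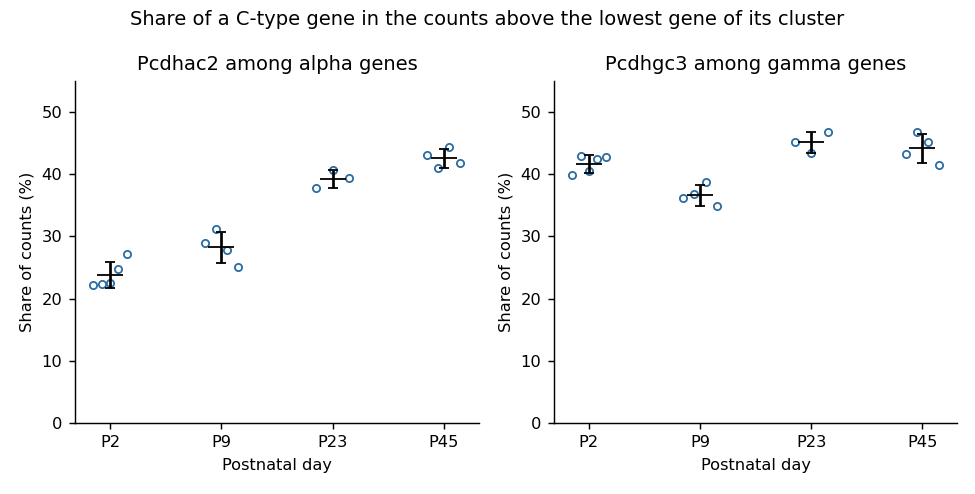
Share (%) of Pcdhac2 in the summed counts above the lowest alpha gene, and of Pcdhgc3 in those above the lowest gamma gene, at P2, P9, P23 and P45. Each circle is the sum of the 4 libraries that share an age and a replicate number, and the bars are the mean ± SD. The older circles of Pcdhac2, from 37.8% to 44.4%, all lie above the younger ones, from 22.2% to 31.2%.

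As a share of all counts above the lowest gene in the alpha cluster, Pcdhac2 went from 23.8% ± 2.12 at P2 (SD, n = 5) and 28.2% ± 2.54 at P9 (SD, n = 4) to 39.3% ± 1.42 at P23 (SD, n = 3) and 42.6% ± 1.51 at P45 (SD, n = 4). The older sums, at 41.2% on average, lay above the younger ones, at 25.8%, without overlap. The share of Pcdhac1 went from 1.36% in the younger to 2.51% in the older sums. These shares restate the unequal changes above on another scale, were computed after those had been seen, and depend on the unknown part of Pcdha1 that is subtracted from every gene, so they are given without a test.

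In the gamma cluster the deposited counts fell by 0.19 to 0.24, and all 13 genes were called. Pcdhga1, the lowest gene, had 320, 364 and 459 CPM in the younger and 294, 309 and 388 CPM in the older sums, which overlapped (-0.20 ± 0.06, adjusted p = 0.0094). Most calls of the gamma genes, which share most of their pairs, were lost in LEC libraries alone. There Pcdhga10 and Pcdhgb7 also fell but were not called (adjusted p = 0.052 and 0.081). No gamma gene was called for a region difference that changed with age.

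Counts above the lowest gene were called for 10 of the 12 gamma genes other than Pcdhga1, all lower, near the 77.3% of all genes called (39.0% lower). Pcdhgb7 had 7.38, 14.1 and 25.0 CPM in the younger and 4.67, 5.99 and 11.1 CPM in the older sums (-1.08 ± 0.18, adjusted p = 3.2e-05), with overlap and with its largest step from P2 to P9 (-1.05 ± 0.23). Pcdhga10 had 22.6, 26.2 and 36.5 CPM in the younger and 11.3, 12.9 and 19.1 CPM in the older sums, without overlap (-0.97 ± 0.12, adjusted p = 1.9e-06). Pcdhga5 and Pcdhgb8, the genes not called, were at -0.28 ± 0.15 and -0.12 ± 0.19.

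Of the C-type genes of the gamma cluster only Pcdhgc3 was analysed. Pcdhgc3 had 91.1, 121 and 170 CPM above the lowest gene in the younger and 80.9, 94.2 and 107 CPM in the older sums (-0.29 ± 0.07, adjusted p = 0.0017). Its called step was from P2 to P9 (-0.57 ± 0.10). Its share of the counts above the lowest gene, over the gamma genes analysed, was 39.4% in the younger and 44.6% in the older sums. These overlapped and, like the shares above, are given without a test. That share did not move in 1 direction. It went from 41.7% (P2) to 36.6% (P9), then to 45.1% (P23) and 44.2% (P45).

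In the annotation 10 of the 11 beta genes have 1 exon and Pcdhb12 has 2, none shared with another gene of the cluster, though near-identical stretches between paralogs can cost them pairs. Of the 11 beta genes, 7 were called between ages, 5 lower and 2 higher, below the 77.3% of all genes. Pcdhb9 had 14.7, 16.5 and 19.1 CPM in the younger and 23.3, 24.5 and 26.9 CPM in the older sums, all above (0.55 ± 0.05, adjusted p = 1.4e-08). Pcdhb12 went the other way, from 8.11, 10.4 and 11.4 CPM to 4.92, 5.49 and 6.43 CPM, without overlap (-0.84 ± 0.09, adjusted p = 1.7e-07). Pcdhb5 rose by 0.23 ± 0.05 and Pcdhb20 fell by 0.58 ± 0.11.

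The promoters listed below share a short run of letters, CGCT. These 4 letters alone are common, and stood on the gene strand in 44.6% of 33469 rat promoters (60.9% on either strand). The 26-base windows below are RefSeq sequence of the assembly GRCr8, gene strand, cut around the letters CGCT, which are in capitals. The first 4 are beta genes and the last 3 gamma genes.
Pcdhb9: aagacacagggtggCGCTgcaggcta
Pcdhb5: tgaacgcagggtggCGCTgcaggcta
Pcdhb12: aggacgcttggtggCGCTgcaggcta
Pcdhb20: gagacacatggtggCGCTgtaggata
Pcdhga10: ccgactctgagcgcCGCTgttcacct
Pcdhgb8: tggactctgggcgcCGCTgttgtcca
Pcdhgc3: gggactctgtgtgcCGCTgtcggcca

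The windows lie at chr18:29379249-29379274 (Pcdhb9), chr18:29302405-29302430 (Pcdhb5), chr18:29413649-29413674 (Pcdhb12), chr18:29485811-29485836 (Pcdhb20), chr18:29825815-29825840 (Pcdhga10), chr18:29839497-29839522 (Pcdhgb8) and chr18:29884067-29884092 (Pcdhgc3) of GRCr8, not of rn6. Promoter sequence from 250 bases before to 50 bases after the gene start was at hand for 33 of the 49 genes. Only 1 of the 15 genes of the alpha cluster was among them, so that cluster was hardly covered. GGTGGCGCT stood on the gene strand in 11 of 11 beta promoters and in 0.242% of 33469 rat promoters of the same length (0.457% on either strand). CGCTGTT, which overlaps it in the letters CGCT, stood on the gene strand in 9 of 10 gamma A promoters, in 1 of 1 gamma B and 1 of 11 beta promoters, and in 0.983% of all promoters (1.98% on either strand). The searched letters were read off these promoters, and a match is a description of the sequence only. Since all 11 beta promoters hold GGTGGCGCT, beta genes that rose and beta genes that fell both hold it. Its relation to the age differences was not tested.

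Among 9 measured regulators of clustered protocadherin promoters, out of a list of 12, all 9 were lower in the older sums, with a median of -0.39, where 39.0% of all genes were called lower. The DNA methyltransferase Dnmt3b was at -2.08 ± 0.16, the histone methyltransferase Setdb1 at -0.93 ± 0.05, the cohesin subunit Smc3 at -0.67 ± 0.05 and the insulator protein Ctcf at -0.24 ± 0.04. Of 16 measured cytoplasmic partners and cleavage enzymes, out of 17, 7 were higher and 5 lower, where 38.3% of all genes were called higher. Cyfip2 of the WAVE complex rose by 1.47 ± 0.07 and the kinase Ptk2b by 1.403 ± 0.199, while Cdh2 (N-cadherin, which Pcdh8 helps to internalise) fell by 0.96 ± 0.06 and the kinase Fyn by 0.64 ± 0.04.

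Between layers, 25 of the 49 protocadherins were called, 19 lower and 6 higher in LII than in LDeep, against 54.0% of 12521 genes. The median was 0.03 over the 49 genes and -0.05 over all genes. This comparison used the 64 single libraries, with 32 in each layer. By cluster, all 15 alpha genes were called as lower and 1 gamma gene as higher. The alpha and gamma genes share most of their pairs and are no separate observations. Among genes that share no exon, the calls were 2 of 11 beta genes (lower) and 7 of 10 non-clustered genes (5 higher and 2 lower). Without the 3 libraries least like their groups 38 genes were called, 19 higher and 19 lower (7601 of 12492 genes, 3084 higher and 4517 lower), since all 13 gamma genes were then called as higher in LII. Without P45 replicate 4, 12 gamma genes were called, and with quantile normalization all 13, of 42 calls in which 17 genes were higher and 25 lower (6689 of 12521 genes, 2482 higher and 4207 lower).

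**Figure D4:**
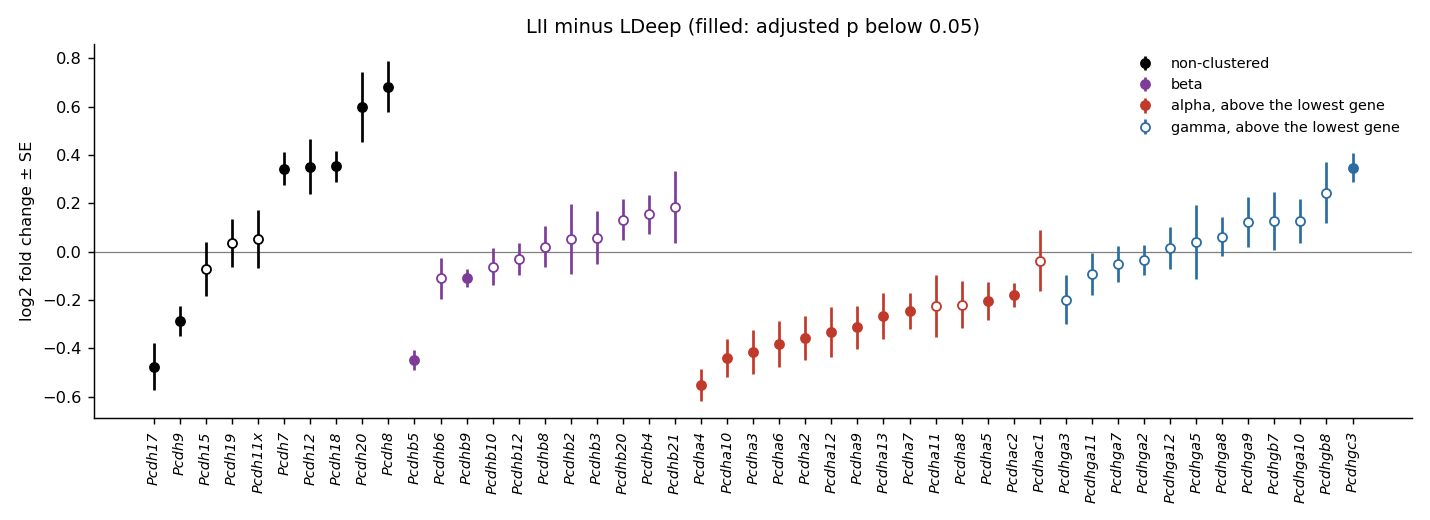
Log2 fold change ± SE between LII and LDeep for each protocadherin, sorted within groups. Non-clustered and beta genes are deposited counts, alpha and gamma genes counts above the lowest gene of their cluster, and filled points have an adjusted p below 0.05. Pcdh8 is highest at 0.68, Pcdha4 lowest at -0.55, and the alpha values all lie below 0.

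In deposited counts, the non-clustered genes Pcdh8 and Pcdh17 had the layer differences of largest size in either direction among the 49 genes. Pcdh8 had 48.0, 103 and 322 CPM in LII and 19.8, 72.4 and 228 CPM in LDeep (0.68 ± 0.11, adjusted p = 2.4e-07). The ranges overlapped, but among libraries of the same region, age and replicate number LII was higher in 26 of 32 pairs. Pcdh20 had 19.2, 49.7 and 120 CPM in LII and 5.86, 39.3 and 72.3 CPM in LDeep (0.60 ± 0.15, adjusted p = 0.00046), with LII higher in 26 of 32 pairs, but in LEC libraries alone it was at 0.27 and not called (adjusted p = 0.20). Pcdh17 was higher in LDeep, with 43.0, 66.6 and 375 CPM in LII and 55.7, 105 and 232 CPM in LDeep (-0.48 ± 0.10, adjusted p = 3.9e-05, LII lower in 26 of 32 pairs). Pcdh9 was also lower in LII, at -0.29 ± 0.06 and in 27 of 32 pairs, and Pcdh7 higher at 0.34 ± 0.07 and in 23 of 32 pairs.

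Pcdh18 and Pcdh12 were each higher in LII by 0.35, with SE of 0.06 and 0.12. For Pcdh18 the layers overlapped at P2 and P9 but not at P23, where LII had 16.98 to 23.5 CPM and LDeep 10.4 to 16.3 CPM, or at P45. Pcdh12 lost its call without P45 replicate 4 (adjusted p = 0.060) and in MEC libraries alone (0.36, adjusted p = 0.11), and with quantile normalization its sign turned (-0.0141, adjusted p = 0.93). All 7 endothelial markers were also higher in LII (median 0.98, summed level 154 to 453 CPM in LII and 121 to 328 CPM in LDeep). So were 9 of 10 markers of meningeal fibroblasts (median 3.84, 29.7 to 1760 CPM in LII and 30.2 to 1205 CPM in LDeep). None of these markers was at 0 in all libraries. Among other lists, 4 of 5 markers of dividing cells (median 0.49) and 6 of 7 astrocyte markers (median 0.79) were higher in LII. In contrast, 3 of 5 neuronal markers were lower (median -0.19). From the younger to the older ages, LII minus LDeep shifted by -0.71 for Pcdh12 and by 0.39 for Pcdh18. For the endothelial markers the median shift was -0.07, and 1 of 7 was called, downward. The part of these markers in the layer differences of Pcdh12 and Pcdh18 was not tested.

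The layer difference of 3 non-clustered genes differed between MEC and LEC, against 1.25% of all genes. In MEC, Pcdh8 was higher in LII by 1.10 ± 0.15, and in LEC the difference was 0.27, so that the test of the change gave 0.83 ± 0.21 (adjusted p = 0.027). Pcdh7 was higher in LII in MEC (0.65 ± 0.10) and at 0.03 in LEC, a change of 0.62 ± 0.14 (adjusted p = 0.0069). At P23, Pcdh7 had 267 to 300 CPM in MEC LII and 112 to 152 CPM in MEC LDeep, and 192 to 237 CPM in LEC LII and 162 to 212 CPM in LEC LDeep. Pcdh17 was lower in LII in LEC (-0.84 ± 0.14) and at -0.11 in MEC, a change of 0.72 ± 0.19 (adjusted p = 0.040). These calls rested on single replicate numbers, and leaving out 1 lost that of Pcdh7 in 3 of 16 fits, Pcdh8 in 7 and Pcdh17 in 13, and without the 3 libraries least like their groups Pcdh8 was at 0.58 (adjusted p = 0.059).

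Of the beta genes, Pcdhb5 had the layer difference with the smallest p of the 49 genes. It had 11.7, 16.7 and 21.4 CPM in LII and 16.2, 22.4 and 29.3 CPM in LDeep (-0.45 ± 0.04, adjusted p = 6.3e-14). LII was lower in 32 of 32 pairs, the layers did not overlap at P9, P23 or P45, and the difference was called in MEC (-0.35 ± 0.06) and in LEC (-0.55 ± 0.06). Pcdhb9 was lower by 0.11 ± 0.04, and this call was lost without P2 replicate 2, without P23 replicate 2, in MEC libraries alone and with at least 10 counts required.

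Alpha genes were lower in LII. So were 3 of 5 neuronal markers (median -0.19, summed level 711 to 5517 CPM in LII and 804 to 5724 CPM in LDeep, none at 0 in all libraries), while 6 of 7 astrocyte markers were higher in LII (median 0.79, 906 to 6119 CPM in LII and 585 to 4094 CPM in LDeep), and their part in the alpha differences was not tested. The count of Pcdha1 holds the pairs on constant exons and an unknown part of its own. It was 72.3, 187 and 257 CPM in LII and 121, 204 and 336 CPM in LDeep (-0.34 ± 0.05, adjusted p = 9.1e-09), with LII lower in 30 of 32 pairs. Counts above the lowest gene were called as lower in LII for 11 of 14 alpha genes, where again 54.0% of all genes were called. Pcdha4 above the lowest gene had 5.61, 20.7 and 33.5 CPM in LII and 8.69, 26.2 and 49.4 CPM in LDeep (-0.55 ± 0.07, adjusted p = 5.1e-10), lower in 31 of 32 pairs. Pcdha3 was at -0.42 ± 0.09 and Pcdhac2 at -0.18 ± 0.05, while Pcdhac1 at -0.04 ± 0.13 was not called.

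Of the 12 gamma genes other than Pcdhga1, only Pcdhgc3 was called between layers in counts above the lowest gene, and it was higher in LII. It had 87.1, 120 and 183 CPM in LII and 63.3, 85.1 and 225 CPM in LDeep (0.35 ± 0.06, adjusted p = 2.6e-06), higher in 25 of 32 pairs. At P9 LII was higher in 8 of 8 pairs, with 0.45 ± 0.12, and the difference was 0.47 ± 0.14 at P23 and 0.53 ± 0.12 at P45, while at P2 it was -0.07 and not called. The change of that layer difference of Pcdhgc3 with age, at 0.31 ± 0.12, was not called (adjusted p = 0.11). The deposited count of Pcdhgc3 gave a smaller value of 0.14 ± 0.05, whose call was lost without 5 of the 16 replicate numbers in turn.

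A change of the layer difference between the younger and older ages was called for 2 genes, against 8.8% of all genes. Pcdh12 was higher in LII at P2 (0.70 ± 0.17) and P9 (0.71 ± 0.19) and at -0.05 and 0.05 at P23 and P45, a change of -0.71 ± 0.23 (adjusted p = 0.043). The layer difference of Pcdh18 grew by 0.39 ± 0.13 (adjusted p = 0.038). Both calls were near the threshold, with 9 and 14 of 16 fits without 1 replicate number losing them. The call of Pcdh18 was also lost in 7 of 11 other alternatives, among them without the 3 libraries least like their groups. That of Pcdh12 was lost in 1 of 10, MEC libraries alone. Without P45 replicate 4, 15 genes were called, 14 of them alpha genes with values near -0.30. These alpha genes share most of their pairs and are no separate observations, and the share of all genes called in that fit is not given.

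Between regions, 7 of the 49 genes were called, 4 higher and 3 lower in MEC than in LEC, against 15.4% of all genes. The median was -0.07 over the 49 genes and 0.0057 over all genes. None of the alpha or gamma genes was called by edgeR, and 1 of these 28 had an unadjusted p below 0.05. In counts above the lowest gene 0 of 26 were called and 2 had an unadjusted p below 0.05, where again 15.4% of all genes were called. With the replicate number as a block, Pcdhac2 was called in deposited counts (-0.10, adjusted p = 0.022) and above the lowest gene (-0.13, adjusted p = 0.0059). The 7 called genes were all beta or non-clustered. Markers of layers also differed between regions, with 2 deep-layer markers higher and 2 lower of 5 (148 to 1138 CPM in MEC and 173 to 831 CPM in LEC, summed) and 1 LII marker higher and 1 lower of 3 (122 to 1533 CPM in MEC and 250 to 1448 CPM in LEC), and 3 of 7 oligodendrocyte markers were higher in MEC. Their part in the region differences was not tested.

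Pcdh9 was the member with the smallest p between regions. It had 119, 442 and 649 CPM in MEC and 190, 279 and 448 CPM in LEC (0.59 ± 0.06, adjusted p = 4.2e-11), higher in MEC in 29 of 32 pairs. The lowest MEC value was MEC LII P2 replicate 1. The regions did not overlap at P9, where MEC had 403 to 567.7 CPM and LEC 222 to 333 CPM, and MEC was higher by 0.78 ± 0.12 (P9), 0.68 ± 0.14 (P23) and 0.76 ± 0.12 (P45), with 0.16 at P2 not called. The change of this region difference of Pcdh9 with age, at 0.25 ± 0.12, was not called (adjusted p = 0.27).

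Among beta genes, Pcdhb12 had 4.46, 8.67 and 14.3 CPM in MEC and 2.75, 7.36 and 12.6 CPM in LEC (0.41 ± 0.07, adjusted p = 6.4e-06), higher in MEC in 28 of 32 pairs and without overlap at P9. Pcdhb9 was higher in MEC by 0.22 ± 0.04 (adjusted p = 1.8e-05) and Pcdhb3 by 0.34 ± 0.11 (adjusted p = 0.027), and the call of Pcdhb3 was lost in 5 of 16 fits without 1 replicate number. In LDeep libraries alone neither was called (0.15, adjusted p = 0.12, and 0.21, adjusted p = 0.57), and in LII libraries alone Pcdhb3 was not (0.45, adjusted p = 0.054). All 3 were called higher in MEC, while with age Pcdhb9 rose and Pcdhb12 fell.

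**Figure D5:**
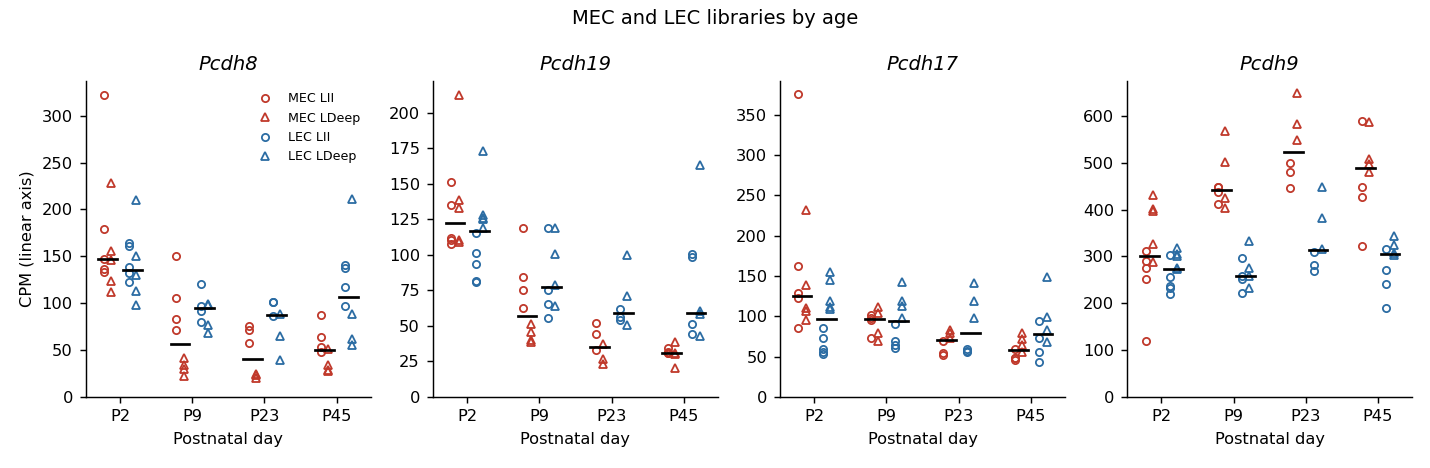
CPM (linear axis from 0) of Pcdh8, Pcdh19, Pcdh17 and Pcdh9 in each library at P2, P9, P23 and P45. Red symbols are MEC and blue LEC, circles LII and triangles LDeep, and black lines the median of a region. At P45 the 8 MEC libraries of Pcdh19, from 20.1 to 38.4 CPM, all lie below the 8 LEC libraries, from 42.6 to 163 CPM.

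Pcdh8 and Pcdh19 were lower in MEC by 0.67 ± 0.11 (adjusted p = 2.6e-06) and 0.61 ± 0.10 (adjusted p = 5.3e-06), and Pcdh7 by 0.21 ± 0.07 (adjusted p = 0.030). For Pcdh7 the call was lost in 7 of 16 fits without 1 replicate number and without the 3 libraries least like their groups (-0.16, adjusted p = 0.084). In LII libraries alone its sign turned (0.0986, adjusted p = 0.48), and in LDeep libraries alone it was at -0.52 (adjusted p = 0.0017). In LII libraries alone Pcdh8 and Pcdh19 were not called either (-0.26, adjusted p = 0.16, and -0.29, adjusted p = 0.11), and in LDeep libraries alone they were at -1.09 and -0.94.

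For Pcdh8 and Pcdh19 the regions drew apart with age. The change of the region difference with age was called for 4 genes, against 4.38% of all genes, and all 4 are delta2 genes. Of the 7 oligodendrocyte markers, 5 were called for such a change, all upward (median 2.09, summed level 107 to 16398 CPM in MEC and 94.6 to 7074 CPM in LEC, none at 0 in all libraries), and 1 of 5 deep-layer and 0 of 3 LII markers were called. Their part in the changes of the delta2 genes was not tested.

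Pcdh19 at P2 had 108, 122 and 213 CPM in MEC and 81.0, 117 and 173 CPM in LEC, which overlapped. At P45 it had 20.1, 31.0 and 38.4 CPM in MEC and 42.6, 59.4 and 163 CPM in LEC, which did not. MEC minus LEC was 0.22 (P2), -0.46 (P9), -0.89 ± 0.23 (P23) and -1.32 ± 0.20 (P45), and the change from the younger to the older ages was -0.99 ± 0.20 (adjusted p = 0.0011).

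Pcdh8 took a like course, from 112, 147 and 322 CPM in MEC and 98.2, 135 and 210 CPM in LEC at P2 to 27.2, 49.5 and 87.5 CPM in MEC and 55.2, 107 and 211 CPM in LEC at P45. In the older ages MEC was lower in 14 of 14 pairs for Pcdh8 and for Pcdh19, while at P2 MEC was higher in 9 of 10 and 8 of 10 pairs. The region difference of Pcdh8 changed by -0.91 ± 0.21 (adjusted p = 0.0048). Both changes kept their calls in all 16 fits without 1 replicate number and without the 3 libraries least like their groups, at -0.72 for Pcdh8 and -0.81 for Pcdh19. In LDeep libraries alone neither was called (-0.88, adjusted p = 0.32, and -0.90, adjusted p = 0.24).

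Pcdh17 was higher in MEC at P2 (0.76 ± 0.17, adjusted p = 0.0049) and at -0.47 at P45, a change of -0.76 ± 0.19 (adjusted p = 0.011). The P2 value includes MEC LII P2 replicate 1, with 375 CPM against 84.8 to 163 CPM in the other 4 libraries of its group, and without the 3 libraries least like their groups the change was -0.51 (adjusted p = 0.017). Without P9 replicate 2 it was not called (adjusted p = 0.050), nor in LII libraries alone (-1.08, adjusted p = 0.055) or LDeep libraries alone (-0.44, adjusted p = 0.53). Pcdh18 changed by -0.41 ± 0.13 (adjusted p = 0.047), a call lost in 11 of 16 fits without 1 replicate number and with the replicate number as a block (adjusted p = 0.050).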

How the data were processed

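The authors trimmed reads with Trimmomatic 0.33, aligned them to rn6 with STAR 2.4.0 and counted pairs per RefSeq gene with featureCounts (Subread 1.4.6-p1), strand-specific, counting a pair for every gene it overlaps. The deposited counts are whole numbers without normalization, and constant exons are therefore counted once per gene of a cluster.

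Protocadherins and the marker and pathway lists were chosen with earlier results of these data known. Tests used edgeR 4.0.16 (quasi-likelihood, TMM scaling, low-count filter, Benjamini-Hochberg over all genes, R 4.3.3). Ages were compared over 16 sums of the 4 libraries with the same age and replicate number, layers and regions over 64 libraries with 1 mean for each of 16 groups. Alpha and gamma genes were also tested as counts minus the lowest gene of the cluster in the same library, keeping the library sizes. Alternatives used DESeq2 1.42.0 and limma 3.58.1 (voom). Scripts were tested on simulated data. All 49 genes passed the filters. Replicates differed by more than counting noise in all 100 pairs of the same group (chi-square per degree of freedom at least 3.17).

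Named were all non-clustered genes, the C-type genes, and in each cluster the 2 genes with the largest called change in each direction between ages, layers and regions. Pcdhb3 enters by that rule for regions. Pcdhga5, Pcdhgb8, Pcdha1, Pcdha11 and Pcdhga1 were named after their values were seen.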

Additional observations from a re-analysis of the deposited data

Results flagged for a closer look

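Among 45 groups of 4 or 5 sums tested, 3 held a sum far from the others, and chance gives about 1 in 20. Pcdh11x had 68.0 CPM in the sum of P2 replicate 3, against 25.6 to 29.9 CPM in the other P2 sums. At P45, replicate 4 had 5.73 CPM of Pcdhac1 above the lowest alpha gene, against 3.10 to 3.40 CPM in the other sums, and 74.1 CPM of Pcdhac2, against 57.3 to 60.0 CPM. That sum holds LEC LDeep P45 replicate 4 (4922946 pairs), a library that stood apart from its group, and LEC LII P45 replicate 4 (11439143 pairs). The part of single libraries in these values was not tested.

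The difference between regions changed with age for Pcdh19 (-0.99), Pcdh8 (-0.91), Pcdh17 (-0.76) and Pcdh18 (-0.41). The difference between layers changed with age for Pcdh12 (-0.71) and Pcdh18 (0.39). The difference between layers was larger in MEC than in LEC for Pcdh8 (0.83) and Pcdh7 (0.62), and less negative in MEC for Pcdh17 (0.72). All are log2 values from edgeR's quasi-likelihood test of the difference itself.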

How the results depend on the processing

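For 50 results on named genes, 1342 alternatives were run. In 1217 the direction and the side of the threshold were kept, in 121 the call was lost and in 4 the sign changed. The sign changed for Pcdhac1 between ages in counts above the lowest gene and above a fixed gene (0.0508 and 0.0508). The fixed gene was the lowest gene in all 64 libraries, so these alternatives were identical by construction, and the totals count each of them. The sign also changed for Pcdh12 between layers with quantile normalization (-0.0141), and for Pcdh7 between regions in LII libraries alone (0.0986). The causes were not tested.

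Of the counts of called genes, 44 between ages became 28 in LEC libraries alone, 24 from P2 to P9 became 39 with 64 single libraries, and 0 from P23 to P45 became 1 with DESeq2, with 64 single libraries and without the 3 libraries least like their groups (an alternative chosen after seeing the data). The 25 between layers became 42 with quantile normalization and 38 without these 3 libraries. The 7 between regions became 3 in LII libraries alone. The 2 for the layer difference with age became 1 with RLE size factors, without a filter, with at least 10 counts, with DESeq2, with quantile normalization and without the 3 libraries, and 0 in MEC libraries alone. The 4 for the region difference with age became 2 in LII and 0 in LDeep libraries alone. The share of all genes called in these fits and in those below is given only where stated above. Without it, a change in such a count is no result about protocadherins.

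Leaving out each replicate number in turn gave 44 to 46 calls between ages, 21 to 34 from P2 to P9, 23 to 26 from P9 to P23, 0 to 1 from P23 to P45, 24 to 35 between layers, 5 to 8 between regions, 0 to 15 for the layer difference with age, 3 to 4 for the region difference with age and 0 to 3 for the layer difference between regions. In counts above the lowest gene it gave 22 to 24 between ages, 10 to 14 between layers and 0 to 1 between regions.

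Samples share only a replicate number: libraries of the same age and number deviated together with a mean correlation of 0.13 over 96 pairs, of which 55 were over 0.1, against -0.04 over 300 other pairs. With the replicate block, 25 genes were called between layers, 9 between regions, 2 and 4 for the layer and region differences with age and 4 for the layer difference between regions, and in counts above the lowest gene 14 between layers and 1 between regions in place of 0. The genes added between regions were Pcdh11x (-0.23, adjusted p = 0.040) and Pcdhac2 (-0.10, adjusted p = 0.022), and in counts above the lowest gene Pcdhac2 (-0.13, adjusted p = 0.0059).

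Counts above the lowest gene rest on few pairs for Pcdhac1 and Pcdhga5, with medians of 26.5 and 28.5 per library.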
